A study of Mus musculus with 42 samples.

Results

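The Id inhibitors and the E proteins they bind are encoded in the mouse by 7 genes, Id1, Id2, Id3 and Id4 for the inhibitors and Tcf3, Tcf4 and Tcf12 for the E proteins. They were taken by gene symbol from the RNA-seq count files, where all 7 were found among 24466 listed symbols, and all 7 passed the filter on low counts. The family was selected on the RNA counts of these same 8 replicates, which were in view when it was proposed, so the RNA levels of the 7 genes are given as a description with no p-value, and counts of members past a threshold are not read as evidence. Tcf3 here is the gene of E2A, Tcf4 the gene of E2-2 and Tcf12 the gene of HEB, and none of them is one of the Wnt effectors that carry similar names.

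RNA-seq was done on 3 cell populations. iPax7 +Dox cells (3 replicates) are muscle precursors differentiated from 1 mouse embryonic stem cell line, sorted as PDGFRα+ Flk-1- cells, and kept with FGF and 0.75 µg/ml doxycycline, which drives a Pax7 transgene. The iPax7 -Dox 3d cells (2 replicates) are the same precursors 3 days after doxycycline was washed out, with FGF still present. Satellite cells (3 replicates), the resident stem cells of adult muscle, were sorted from muscle of Pax7-ZsGreen reporter mice and are labelled as in vivo material, and the ages of the animals are not given in the sources used here. Accessible chromatin was mapped by ATAC-seq in these 3 populations, in iPax7 cells 12 h and 24 h after doxycycline removal, in iPax7 myotubes grown in 2% horse serum, and in the C2C12 mouse myoblast line as myoblasts, as myotubes, and as myoblasts stably carrying Pax7-Flag or a Flag control. Histone marks were mapped by ChIP-seq in iPax7 cells with and without doxycycline and in the C2C12 lines with Pax7-Flag or Flag, and Pax7 itself in iPax7 cells. The replicates of a condition are separate count files, and nothing states that they came from separate cultures or animals, so p-values measure the spread between these files only. In such bulk samples, fewer cells of a type and less RNA per cell cannot be told apart.

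Basic helix-loop-helix (bHLH) factors bind the short DNA motif CANNTG, the E-box, as dimers. In muscle, the myogenic factors Myf5, MyoD, Mrf4 and myogenin pair with an E protein to bind E-boxes and switch on muscle genes. Id proteins carry the helix-loop-helix but lack the basic region that touches DNA, so a dimer of an Id and an E protein does not bind the E-box. Id genes are classic targets of BMP signalling and are usually abundant in dividing progenitors.

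The Pax7 transgene followed the labels. Pax7 mRNA averaged 12833 ± 1261 normalized counts in +Dox cells (SD, n = 3) and 245 ± 34.6 in -Dox 3d cells (n = 2), with 5962 ± 2331 in satellite cells (n = 3). Normalized counts are deposited read counts divided by the library's TMM-scaled total and brought to a common library size. Library totals lay between 39010958 and 54674619 counts. Reads that aligned to more than 1 place made up 7.11% to 7.60% of reads in the iPax7 libraries and 23.6% to 30.7% in the satellite cell libraries. Satellite cell replicates correlated less with each other (Pearson's r across genes on the log2 scale 0.868 to 0.883) than the +Dox replicates (0.931 to 0.958) or the -Dox pair (0.944), and +Dox replicate 3 stood further from the other +Dox replicates than these did from each other. The libraries of a group differed by more than sampling noise in every pair.

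The start regions of 3 members are shown here because each overlapped an accessible region in all 10 ATAC-seq conditions, whatever the RNA level described below. Each sequence is the 250 bases before an annotated RefSeq start (GRCm38.p6), written on the gene's strand. Capitals mark E-boxes, CANNTG on either strand, and the palindrome GGCGCC, which is known as a BMP-Smad binding motif of Id promoters.
Id2, chr12:25096093-25096342, minus strand: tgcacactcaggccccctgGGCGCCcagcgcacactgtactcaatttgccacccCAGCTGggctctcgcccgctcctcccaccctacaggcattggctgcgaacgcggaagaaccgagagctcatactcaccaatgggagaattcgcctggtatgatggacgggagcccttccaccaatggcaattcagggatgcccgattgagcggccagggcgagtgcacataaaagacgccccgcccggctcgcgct
Id4, chr13:48260866-48261115, plus strand: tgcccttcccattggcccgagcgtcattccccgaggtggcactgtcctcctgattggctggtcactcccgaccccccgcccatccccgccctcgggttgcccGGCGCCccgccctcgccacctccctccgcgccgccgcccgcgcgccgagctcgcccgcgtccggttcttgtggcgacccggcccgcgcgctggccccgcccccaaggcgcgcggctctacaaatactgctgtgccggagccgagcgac
Tcf12, chr9:72111820-72112069, minus strand: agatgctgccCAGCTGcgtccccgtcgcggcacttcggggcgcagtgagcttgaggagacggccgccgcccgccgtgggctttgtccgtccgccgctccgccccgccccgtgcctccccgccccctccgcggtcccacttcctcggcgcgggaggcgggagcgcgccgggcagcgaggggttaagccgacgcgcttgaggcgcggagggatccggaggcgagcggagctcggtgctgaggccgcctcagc
The Id2 stretch held 1 E-box, a CAGCTG, and 1 GGCGCC, the Id4 stretch held 1 GGCGCC and no E-box, and the Tcf12 stretch held 1 CAGCTG and no GGCGCC. Of 32807 such promoter stretches in the RefSeq table, 66.2% held CANNTG, 13% held CAGCTG and 9.59% held GGCGCC, with CAGCTG counted among the CANNTG matches. The table held promoters of 5 of the 7 genes, Id2, Id3, Id4, Tcf3 and Tcf12. The Id3 and Tcf3 stretches, also accessible in all 10 conditions, are not printed because they overlap annotated exons. The Id3 stretch held no E-box and no GGCGCC, and the Tcf3 stretch held 1 E-box and no GGCGCC. The other 2 Tcf12 stretches, accessible in 9 and 4 conditions, held 1 E-box and none, and no GGCGCC. A match is a string of letters, not evidence of a bound site.

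All 4 Id genes were lower 3 days after doxycycline removal. Id1, Id2 and Id3 were 3.91 to 4.90-fold lower, and Id4 went from a low level to almost no reads. Id1 (chr2:152561987-152563146, plus strand; coordinates of genes, peaks and Pax7 sites are NCBIM37, the mm9 assembly) had 5646, 5898 and 11593 normalized counts in +Dox replicates 1 to 3, 1913 and 2029 in the -Dox 3d replicates, and 7206, 6147 and 6209 in satellite cells. The groups with and without doxycycline did not overlap, while satellite cells lay inside the +Dox range. The mean was 7712 ± 3363 (SD, n = 3) in +Dox cells and 1971 ± 81.7 (n = 2) without doxycycline, a ratio of means of 3.91, and the fitted log2 fold change was -1.97 (SE 0.368). Against +Dox the satellite cell difference was -0.24 (SE 0.305) on the log2 scale, smaller than its error.

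Id2 (chr12:25778666-25780957, minus strand), whose protein also binds the retinoblastoma protein, had 12958, 12741 and 18762 normalized counts in +Dox, 2872 and 3181 in -Dox 3d, and 12573, 7076 and 19825 in satellite cells. The means of 14820 ± 3415 (SD, n = 3) and 3026 ± 219 (n = 2) put Id2 4.90-fold lower without doxycycline (log2 fold change -2.29, SE 0.435). The satellite cell values were spread around the +Dox values (log2 fold change -0.17, SE 0.355). Satellite cell replicate 2 was the low one and replicate 3 the high one, and all 3 lay above both -Dox replicates.

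Id3 (chr4:135699412-135701670, plus strand) was the most abundant member in every library, also per length of transcript. Its normalized counts were 54641, 60857 and 98360 in +Dox, 13583 and 15708 in -Dox 3d, and 159580, 47147 and 85933 in satellite cells. The +Dox mean of 71286 ± 23652 (SD, n = 3) was 4.87-fold that of -Dox 3d cells, 14646 ± 1503 (n = 2), with a log2 fold change of -2.28 (SE 0.505). Satellite cells overlapped +Dox cells (log2 fold change 0.45, SE 0.413) and lay entirely above -Dox 3d cells (2.74, SE 0.517). Within the satellite cells, Id3 ranked as the summed level of 11 early genes that tissue dissociation is known to raise, such as Fos and Egr1: 24870 CPM in replicate 1 (CPM is counts scaled to a common TMM-corrected library total), 8883 in replicate 2 and 14000 in replicate 3, against 114 to 142 in the iPax7 libraries. That order of 3 replicates was not particular to those genes. Summed immune markers (676, 251 and 507 CPM in replicates 1 to 3) and satellite cell markers (23430, 14010 and 19150) had it too. Endothelial markers (402, 576 and 500) did not. The part of any of these lists in the Id3 values was not tested.

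Id4 (chr13:48356796-48359405, plus strand, overlapping the annotated transcript A330033J07Rik) had few reads in every library. Its raw reads numbered 135, 204 and 222 in +Dox, 0 and 1 in -Dox 3d, and 170, 79 and 184 in satellite cells. Pooled over replicates, the normalized level was 322-fold higher with doxycycline than without (95% counting interval 57.6 to 12800), and 415-fold higher in satellite cells than in -Dox 3d cells (74.1 to 16400), intervals that cover counting error only. The means were 152 ± 50.4 normalized counts in +Dox (SD, n = 3) and 191 ± 74.1 in satellite cells (n = 3), and the 2 groups overlapped. Reads of the overlapping transcript cannot be told from those of Id4 where the counting setting for strand is not given.

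**Figure D1:**
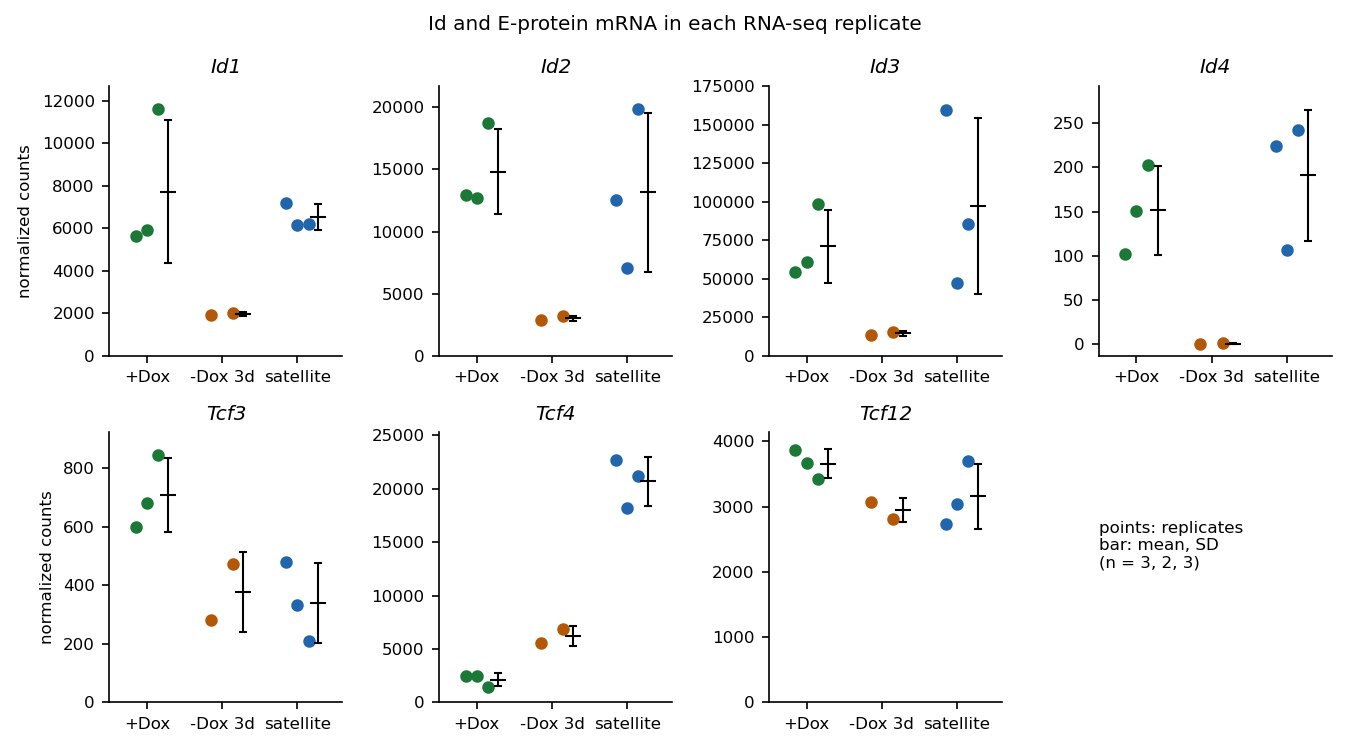
Normalized counts (vertical axis, linear) of the 7 genes in each RNA-seq replicate, with +Dox in green, -Dox 3d in orange and satellite cells in blue; black bars give mean and SD (n = 3, 2 and 3). The -Dox 3d points of all 4 Id genes lie below every other point of their gene, while for Tcf4 the 3 groups lie one above the other, from 1399.6 to 2513 in +Dox up to 18215 to 22706 in satellite cells.

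The E-protein genes did not move together. Tcf4 was higher without doxycycline and highest in satellite cells, Tcf3 was highest in +Dox cells, and Tcf12 stayed within a narrow range. Tcf4 (chr18:69503800-69847621, plus strand) had 2439, 2513 and 1399.6 normalized counts in +Dox, 5535 and 6855 in -Dox 3d, and 22706, 18215 and 21161 in satellite cells. No group overlapped another. The mean went from 2117 ± 623 (SD, n = 3) through 6195 ± 933 (n = 2) to 20694 ± 2282 (n = 3), ratios to +Dox of 2.93 and 9.77, with log2 fold changes of 1.55 (SE 0.299) and 3.29 (SE 0.295). Satellite cells were 3.34-fold above -Dox 3d cells (log2 fold change 1.74, SE 0.322). Leaving out any 1 of the 8 replicates, or changing the test or scaling, left the satellite cell difference from +Dox between 3.06 and 3.39.

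Tcf3 (chr10:79872259-79896392, minus strand), the E2A gene whose products E12 and E47 gave E proteins their name, had 598, 680 and 846 normalized counts in +Dox, 281 and 473 in -Dox 3d, and 481, 331 and 208 in satellite cells. Both other groups lay below +Dox and overlapped each other. The means were 708 ± 126 (SD, n = 3), 377 ± 135 (n = 2) and 340 ± 136 (n = 3), and the log2 differences from +Dox were -0.91 (SE 0.524) and -1.06 (SE 0.462). The difference without doxycycline was under 2 of its standard errors.

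Tcf12 (chr9:71692059-71959626, minus strand, overlapping the pseudogene Rpl15-ps2) varied least. Its normalized counts were 3872, 3672 and 3428 in +Dox, 3078 and 2815 in -Dox 3d, and 2732, 3048 and 3705 in satellite cells. The -Dox 3d values lay just below the +Dox values (log2 fold change -0.31, SE 0.263), and the satellite cell values overlapped both groups (-0.21 against +Dox, 0.10 against -Dox 3d).

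The 3 comparisons share their groups, so their values are given side by side and not as separate evidence. Calls required an adjusted p below 0.05 in edgeR's quasi-likelihood test over 14836 genes and at least a 2-fold difference. Between -Dox 3d and +Dox, 4 members were called lower (Id1, Id2, Id3 and Id4) and 1 higher (Tcf4), where 3.01% of all genes tested were called lower and 4.63% higher, and all 7 had groups that did not overlap, as did 45.3% of genes. Between satellite cells and +Dox, 1 member was called higher (Tcf4) and 0 lower, beside 23.9% and 18.2% of genes, and 2 members (Tcf3 and Tcf4) had separate groups, as did 56.5% of genes. Between satellite cells and -Dox 3d, 5 were called higher and 0 lower, beside 20.4% and 17.2% of genes, and the same 5 had separate groups, as did 64.3% of genes. These counts come from the values that led to the choice of the family and are printed as description only. The calls without doxycycline rest on 2 libraries: without -Dox replicate 1, 0 members were called, and without -Dox replicate 2, 1 was. The Id3 call was also lost without +Dox replicate 2, without +Dox replicate 3 and with a replicate block, and was kept in 9 of 14 alternative settings.

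+Dox replicate 3 held the highest value of all 4 Id genes and of Tcf3 in its group and the lowest of Tcf4 and Tcf12. In that library the summed level of 8 fibroblast markers was 266 CPM, against 111 and 121 in the other +Dox replicates. Most of that excess lay in 1 gene, Ly6a, with 9643 normalized counts against 2647 and 2899. Dcn was also higher there, at 98.3 against 24.04 and 28.1, and Col1a1 was highest there at 3.64. Col3a1 was at 2851 against 2573 and 2724, and Pdgfrb was lower, at 4.55 against 5.26 and 71.1. Lum had 0 reads in all 3 +Dox libraries. Pdgfra and Thy1 had 0 reads in +Dox replicates 2 and 3, so they do not tell these apart. The part of fibroblasts in the values of +Dox replicate 3 was not tested. With any 1 replicate left out or another test, filter or scaling, the log2 difference between -Dox 3d and +Dox stayed between -2.15 and -1.55 for Id1, -2.38 and -2.00 for Id2, -2.44 and -1.98 for Id3, and 1.32 and 1.71 for Tcf4. The satellite cell difference from +Dox changed sign among these settings for Id1 (-0.47 to 0.18), Id2 (-0.59 to 0.13) and Id3 (-0.10 to 0.79).

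Levels can be compared between genes only per length of transcript. In CPM per kb of exon, Id3 led in +Dox cells at 842 ± 279 (SD, n = 3), ahead of Id2 at 247 ± 56.8 and Id1 at 141 ± 61.3, with Tcf12 at 15.9 ± 0.967 and Id4, Tcf3 and Tcf4 at 1.93 ± 0.642, 3.71 ± 0.662 and 3.65 ± 1.08. Tcf3 and Tcf4 did not differ beyond their spread in +Dox cells. In -Dox 3d cells the order was Id3 (173 ± 17.8, n = 2), Id2 (50.4 ± 3.64), Id1 (35.9 ± 1.49), Tcf12 (12.8 ± 0.813), Tcf4 (10.7 ± 1.61) and Tcf3 (1.97 ± 0.709), with Id4 at 0 and 0.0118 in the 2 replicates. Tcf12 and Tcf4, far apart with doxycycline, were neighbours here, and their order depends on the length used: with the longest transcript as the length, Tcf4 stood at 17.7 ± 2.67 and Tcf12 at 13.2 ± 0.842 (n = 2). In satellite cells Tcf4 reached 35.7 ± 3.94 (n = 3), above Tcf12 (13.8 ± 2.16), Id4 (2.43 ± 0.944) and Tcf3 (1.78 ± 0.714), and below Id1 (119 ± 10.8), Id2 (219 ± 107) and Id3 (1152 ± 674).

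Summed over the 4 genes, the Id level was 965, 1040 and 1688 CPM per kb in +Dox, 243 and 275 in -Dox 3d, and 2228, 788 and 1461 in satellite cells. The Id sum without doxycycline was thus below every other library. Summed over the 3 genes, the E-protein level was 24.2, 23.9 and 21.8 in +Dox, 24.4 and 26.6 in -Dox 3d, and 53.6, 46.4 and 53.7 in satellite cells. The E-protein sum was 23.3 ± 1.32 (SD, n = 3) in +Dox and 25.5 ± 1.51 (n = 2) in -Dox 3d, close but without overlap, and stood at 51.3 ± 4.17 (n = 3) in satellite cells. The Id sum exceeded the E-protein sum in all 8 libraries. The ratio of the sums was 39.9, 43.6 and 77.6 in +Dox, 9.96 and 10.4 in -Dox 3d, and 41.6, 17.0 and 27.2 in satellite cells. Satellite cells thus lay above -Dox 3d cells, and replicate 1 alone reached the +Dox range, an overlap that depended on the length used.

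The makeup of the E-protein sum also differed between the groups. Tcf12 held 68.4% ± 1.37 of it in +Dox (SD, n = 3), 50.5% ± 6.17 in -Dox 3d (n = 2) and 26.9% ± 4.16 in satellite cells (n = 3). Tcf4 held 15.6% ± 3.88, 41.8% ± 3.84 and 69.6% ± 3.06, with no overlap between groups. Tcf3 held 16.1% ± 3.84, 7.68% ± 2.33 and 3.49% ± 1.35. Among the Id genes the shares held steadier, with Id3 at 68.2% ± 1.22, 66.7% ± 0.961 and 74.9% ± 8.41 of the Id sum. With the longest transcript as the length in place of all exons, the E-protein sum was 27.55 ± 1.81 in +Dox (SD, n = 3), 33.6 ± 2.80 in -Dox 3d (n = 2) and 75.8 in satellite cells, so that the iPax7 groups stood further apart. The ratio of the sums was then 57.9, 9.77 and 25.2, the Tcf4 share 21.7%, 52.5% and 77.9% and the Tcf12 share 59.7%, 39.6% and 18.8% in the 3 groups. With this length the satellite cell ratios (37.0, 14.85 and 23.8) all lay below the +Dox ratios (42.7, 46.5 and 84.6), without overlap.

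**Figure D2:**
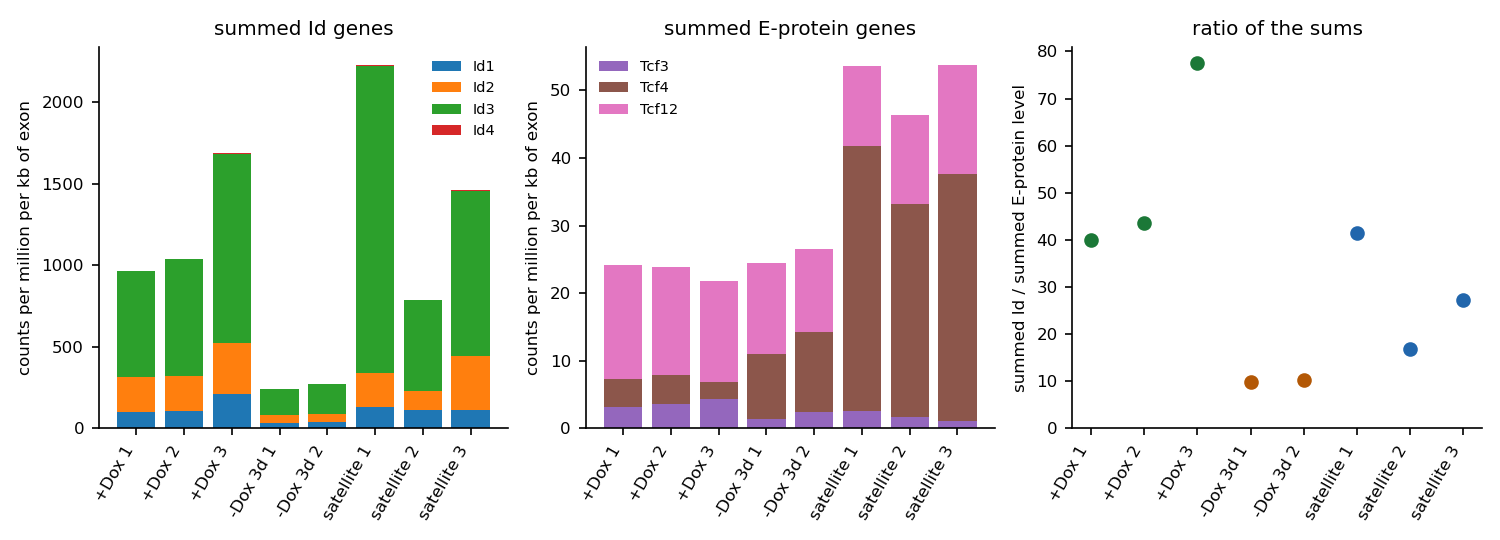
Levels in CPM per kb of exon in each of the 8 libraries, stacked by gene for the Id genes (left) and the E-protein genes (middle), and the ratio of the 2 sums (right). The Id sum is lowest in the -Dox 3d libraries, the Tcf4 part of the E-protein sum widens from +Dox (11.1% to 18.2%) to -Dox 3d (39.1% to 44.6%) to satellite cells (67.7% to 73.1%), and the ratio is lowest in -Dox 3d.

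The satellite cell fraction carried RNA of other cell types, which stands beside the Tcf4 and E-protein values. All 8 endothelial markers were called higher than in +Dox cells, with a summed level of 402 to 576 CPM against 0.0777 to 3.56 in iPax7 libraries. Immune markers (6 of 7 tested called higher) summed to 251 to 676 against 8.38 to 17.2, fibroblast markers (7 of 8) to 1284 to 2378 against 96.3 to 266, smooth muscle and pericyte markers (5 of 6) to 653 to 1014 against 75.9 to 1156, and Schwann cell markers (5 of 6) to 161 to 228 against 4.43 to 16.02. The smooth muscle and pericyte sum was highest in -Dox 3d cells (1156 and 1150). Acta2, the gene of that list not called, averaged 53915 normalized counts there and 9833 in satellite cells. None of these lists was without reads in satellite cells for any marker. Satellite cell markers were far more abundant there, summing to 14010 to 23430 against 817 to 1847 in iPax7 libraries, with 9 of 10 called higher and Pax7 lower. Pluripotency markers summed to at most 2.68 in any library. The part of the other cell types in the Tcf4 level was not tested.

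The dimer partners in muscle, the myogenic bHLH factors, were not members and were tested with all genes. This list, those below and the marker lists above were chosen with earlier results of these data known. Their counts of called genes are therefore description. Of all genes tested, 4.63% were called higher and 3.01% lower without doxycycline, and 23.9% and 18.2% in satellite cells against +Dox. Myogenin (Myog), which drives terminal differentiation, rose from 4150 ± 589 normalized counts in +Dox (SD, n = 3) to 174960 ± 20020 (n = 2) in -Dox 3d (log2 fold change 5.40, SE 0.256, adjusted p = 7.75e-06, edgeR quasi-likelihood test with Benjamini-Hochberg adjustment here and below). Myf5, the early specification factor, fell by 3.64 on the log2 scale (SE 0.332, adjusted p = 0.000233), and Myf6, the gene of Mrf4, rose by 5.14 (SE 1.29, adjusted p = 0.0422) from 3.05 ± 3.86 normalized counts (n = 3) to 113 ± 69.3 (n = 2). Myod1 did not pass the test (-0.52, SE 0.412, adjusted p = 0.545). Satellite cells differed from +Dox cells mainly in Myod1, at 22962 ± 2879 (n = 3) against 200 ± 106 (n = 3) (log2 fold change 6.84, SE 0.459, adjusted p = 1.14e-05), and in Myf6 (5.69, adjusted p = 0.00627). Myf5 did not pass (-0.23, adjusted p = 0.486), and Myog was lower by less than 2-fold (-0.76, adjusted p = 0.0153).

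Muscle genes known to be driven through E-boxes rose when doxycycline was removed. Of 15 such genes, 12 were called higher and 0 lower, with a median log2 fold change of 7.32 where the median over all genes was -0.0049. Tmem8c, the fusion protein myomaker, rose by 7.32 (adjusted p = 6.41e-06), Tnnt3, fast skeletal troponin T, by 8.17 (adjusted p = 1.23e-05) and Actc1, the cardiac actin that embryonic muscle uses, by 10.70 (adjusted p = 1.45e-05). In satellite cells the same list split, 8 higher and 4 lower than in +Dox cells. Desmin (Des) was higher by 4.50 (adjusted p = 8.84e-06), Mef2c, a partner of the myogenic factors, by 3.87 (adjusted p = 0.000236) and muscle creatine kinase (Ckm) by 6.84 (adjusted p = 0.000244). The acetylcholine receptor subunit genes Chrna1 (-3.06, adjusted p = 2.57e-05), Chrnd (-4.22, adjusted p = 0.00824) and Chrng (-2.86, adjusted p = 0.019) were lower, although Chrng lost its call without satellite cell replicate 2.

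Proliferation genes fell in both comparisons. Of 12, 11 were called lower in -Dox 3d (median -3.57) and 11 in satellite cells (median -4.27; all genes 0.17). Aurkb, a mitotic kinase, fell by 3.79 without doxycycline (adjusted p = 0.00205) and was lower by 5.22 in satellite cells (adjusted p = 4.39e-05). The replication licensing gene Mcm5 was lower by 3.63 in -Dox 3d (adjusted p = 0.00107) and 2.79 in satellite cells (adjusted p = 0.00026). Top2a, the topoisomerase of mitotic chromosomes, was lower by 5.00 in satellite cells (adjusted p = 0.00019). Pcna, the replication clamp, fell by 1.88 in -Dox 3d (adjusted p = 0.00424), a call lost without either -Dox replicate. Against -Dox 3d cells, satellite cells had 1 of the 12 called higher and 3 lower, beside 20.4% and 17.2% of all genes. The higher one was Pcna (1.74, SE 0.289), also among the 3 genes with profiles most like that of Id2. The Id1, Id2 and Id3 values of satellite cells lay above every -Dox 3d value. The part of proliferation in the Id levels was not tested.

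BMP ligands and receptors, the upstream side of Id genes, gave 2 higher and 1 lower of 16 tested (18 listed) without doxycycline. Bmp4 fell from 970 ± 197 normalized counts (SD, n = 3) to 83.9 ± 57.6 (n = 2), a log2 fold change of -3.53 (SE 0.495, adjusted p = 0.00258), and stood at 7212 ± 1297 (n = 3) in satellite cells (2.89 against +Dox, SE 0.401, adjusted p = 0.000469). The type 2 receptor gene Acvr2a rose 4.60-fold (adjusted p = 0.00284) and Hfe2, the muscle gene of the BMP co-receptor hemojuvelin, by 5.18 on the log2 scale (adjusted p = 0.00525) without doxycycline. In satellite cells 9 of the 16 were higher and 1 lower than in +Dox cells. The higher genes include Acvrl1 and Eng, both known from endothelial cells, and the endothelial, fibroblast and pericyte marker levels given above stand beside this list and the satellite cell values of the lists that follow. Their part in these values was not tested. Among the 16, Bmp2 was higher by 8.19 (adjusted p = 0.000549) and Bmp6 by 3.77 (adjusted p = 0.00112), while Hfe2 was lower by 2.29 (adjusted p = 0.0349), a call kept in 7 of 14 alternative settings.

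Of 16 transducers and inhibitors of the BMP-Smad pathway, 1 was called without doxycycline, Gas1, a cell surface protein linked to growth arrest, higher by 2.33 (adjusted p = 0.00216). Of the 15 that missed the test, 6 had groups that did not overlap, as did 45.3% of all genes. The ratio of means, +Dox over -Dox 3d, was 7.23 for Smad9, 3.78 for the inhibitory Smad6, 2.64 for Bambi, 2.32 for the inhibitory Smad7 and 1.46 for the ubiquitin ligase gene Smurf1, and the inverse ratio was 2.06 for Smad1, so that larger differences than 2-fold could miss the test with these replicates. In satellite cells 7 were higher and 2 lower. Gas1 (3.52, adjusted p = 4.59e-05), the decoy receptor Bambi (2.95, adjusted p = 0.00597) and the transducer Smad1 (1.41, adjusted p = 0.0108) were higher, and the BMP antagonist noggin, Nog (-5.24, adjusted p = 0.0249), and Smad9 (-5.16, adjusted p = 0.0332) lower. The Smad1 and Nog calls were lost without +Dox replicate 2, and the Smad9 call without any 1 of the +Dox replicates and without satellite cell replicate 2 or 3. The median log2 fold changes of the ligand and receptor list and of this list in -Dox 3d cells were -0.79 and -0.34.

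Other bHLH genes that pair with or compete for E proteins gave 2 higher and 0 lower calls of 13 tested (18 listed) without doxycycline and 6 higher and 2 lower in satellite cells. Without doxycycline the E-box repressor Bhlhe40 rose by 2.09 (adjusted p = 0.0286) and the Notch target Heyl by 4.11 (adjusted p = 0.0308). Those 2 calls and that of Myf6 were lost without either -Dox replicate, without +Dox replicate 2 or 3 and with a replicate block, and Heyl also when only the 2 groups were fitted. Satellite cells had 9.53 more Hey1 (adjusted p = 0.000186) and 9.82 more Heyl (adjusted p = 0.000198) on the log2 scale than +Dox cells. Msc, the bHLH repressor musculin that competes with MyoD, had 8162 reads in satellite cells and 1 in +Dox cells, a ratio of levels of 13600 (95% counting interval 2450 to 538000). Hand1, a bHLH factor of heart and lateral mesoderm, had 824 reads in +Dox and 0 in satellite cells, and was at least 165-fold higher in +Dox against a floor of 3 counts over the group. Hes6, a bHLH factor of muscle and nerve precursors, was lower in satellite cells by 3.49 (adjusted p = 0.0153), a call lost without satellite cell replicate 2.

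Regulators outside the bHLH family that bind E-boxes or E proteins gave 1 call of 10 without doxycycline, the E-protein corepressor gene Cbfa2t3, higher by 4.48 (adjusted p = 0.00256). In satellite cells 6 of 10 were higher and 0 lower than in +Dox. Cbfa2t3 was higher there by 4.46 (adjusted p = 0.000411), and Zeb2, a zinc finger repressor that binds E-boxes, by 3.24 (adjusted p = 3.83e-05). Lmo2, a bridging protein of bHLH complexes known from blood and endothelial cells, had 2259 reads in satellite cells and 2 in +Dox cells (ratio of levels 1890, 95% counting interval 521 to 15600). The endothelial and immune marker levels given above stand beside this value too.

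**Figure D3:**
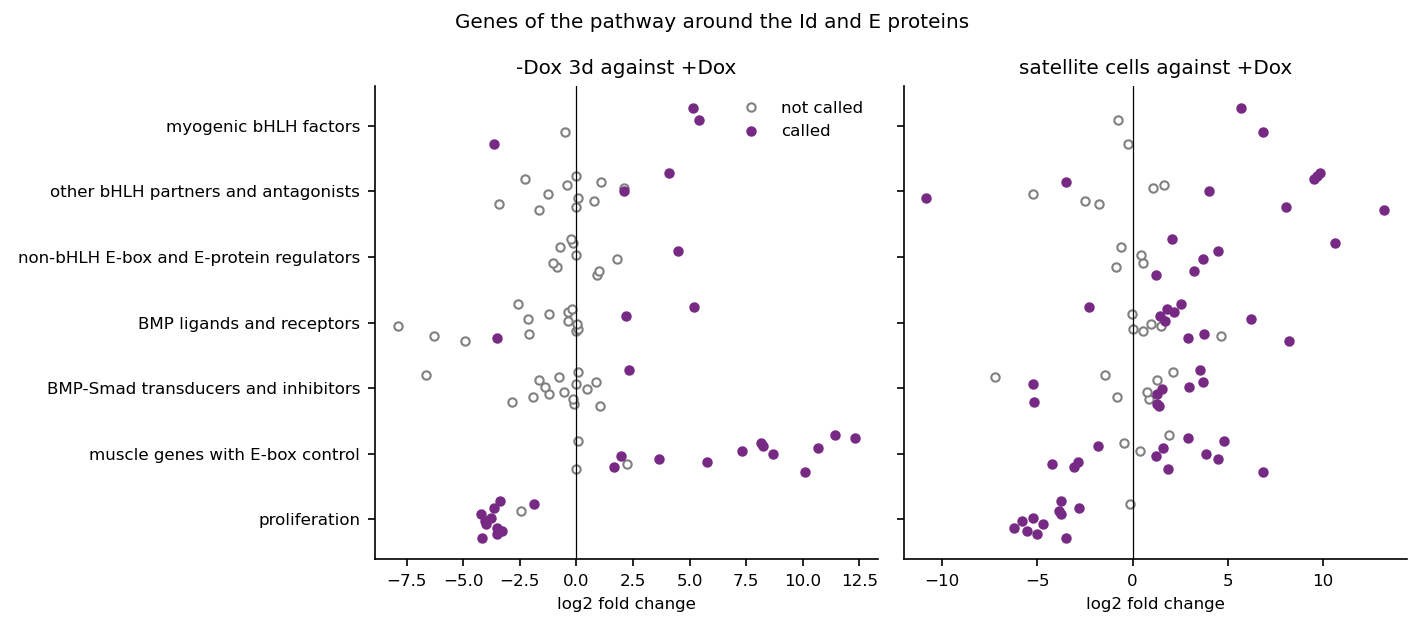
Fitted log2 fold changes (horizontal axis) of the genes of 7 pathway lists, -Dox 3d against +Dox on the left and satellite cells against +Dox on the right; filled points were called (adjusted p below 0.05 and at least 2-fold, edgeR), and genes near 0 reads in a group have folds set by the prior count. Without doxycycline the muscle genes with E-box control (12 of 15 called higher) and the proliferation genes (11 of 12 called lower) have called points on 1 side of 0, while the BMP lists hold few called points (3 and 1 of 16), and in satellite cells called points lie on both sides of 0 in 4 of the lists.

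The genes with RNA profiles most like each member, by root mean square difference of centred log2 levels over the 8 replicates, are a description of likeness. They were Eml3 (0.212), Yeats4 (0.241) and Pradc1 (0.249) for Id1, and A430078I02Rik (0.292), Hmgb2 (0.296) and Pcna (0.304) for Id2. For Id3 they were Anks1 (0.267), Trerf1 (0.359) and Pced1b (0.363), and for Id4 1700008J07Rik (0.798), Klhl29 (0.807) and Tfeb (0.834). Id4 had no close match, whereas Tcf12 had Vti1a (0.114), Rdh13 (0.123) and M6pr (0.132). Those given for Tcf3 are Phb2 (0.199) and Itm2c (0.206), and for Tcf4 they were Acvr1b (0.234), Stat2 (0.296) and Fnip1 (0.3). None of the 3 genes nearest to any member was another member.

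Chromatin was called from merged replicates, 1 peak file per condition, so these values carry no replicate error and were not tested. All 7 members had an accessible region within 1 kb of an annotated start in all 10 ATAC-seq conditions, where 45.6% to 66.4% of 22380 protein-coding genes did. Heights are MACS2 fold enrichment over background, the highest region over all annotated starts of a gene. Tcf4 has 14 such starts, Tcf3 11, Id3 3 and Tcf12 2, while Id1, Id2 and Id4 have 1 each. Heights, ranks and window cover of different genes therefore rest on windows of unlike number. At Id1 the fold was 49.4 in +Dox, 36.3 at 12 h, 61.3 at 24 h and 68.2 at 3 days after doxycycline removal, and 18.9 in satellite cells. At Id2 the values were 63.1, 36.7, 72.8, 77.5 and 57.2, at Id3 68.6, 31.5, 59.6, 55.1 and 17.6, and at Id4 45.5, 23.4, 40.7, 38.0 and 27.3. The promoter of Id4 was thus still open at 3 days, when 1 read of its RNA was counted in 2 libraries.

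Fold values differ in scale between files, with promoter medians of 22.3 in +Dox, 13.6 at 12 h, 23.2 at 24 h, 21.6 at 3 days and 13.9 in satellite cells, so ranks within a file are easier to compare. Id1 stood at the 81.6th percentile of accessible promoters in +Dox, the 91.1st at 3 days, the 64.7th in iPax7 myotubes and the 65.2nd in satellite cells. Id2 stood at 89.2, 93.8, 59.2 and 97.3 and Id3 at 91.4, 85.3, 59.8 and 61.8. The Id1, Id2 and Id3 promoters therefore ranked lower in myotubes than in any other iPax7 file. Tcf4 stood at 65.2, 69.1, 47.3 and 79.7, Tcf3 at 83.1, 72.4, 79.3 and 84.9, Id4 at 78.7, 72.5, 77.6 and 80.6, and Tcf12 was the lowest of the 7 at 26.4, 19, 32.4 and 25.

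**Figure D4:**
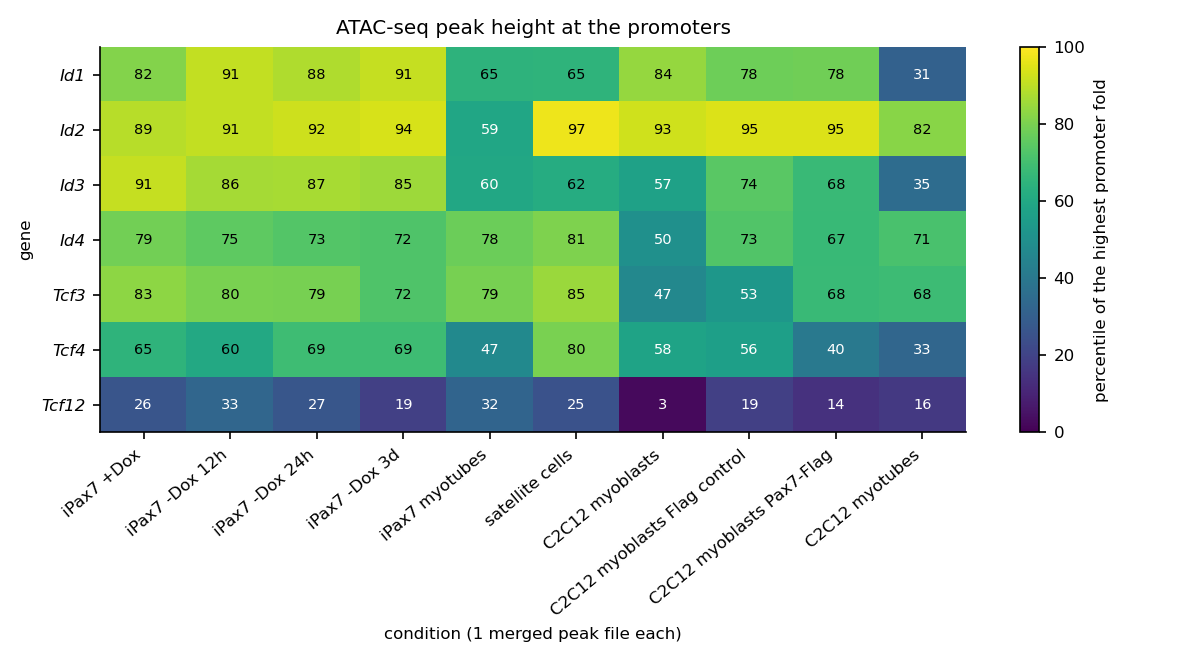
Percentile of each member's highest promoter ATAC-seq fold among all protein-coding genes with an accessible promoter, for the 10 conditions (columns, 1 merged peak file each); brighter colours are higher percentiles. Id1, Id2 and Id3 are at 81.6 or higher in the 4 iPax7 files before myotubes and between 59.2 and 64.7 in iPax7 myotubes, and Tcf12 is the lowest member in every column.

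The active marks H3K27Ac, H3K4me1 and H3K4me3 were present at the starts of all 7 members in iPax7 cells both with and without doxycycline, where between 45.6% and 66.5% of protein-coding genes had each mark. The repressive mark H3K27me3 was at 0 of 7 starts in these cells, beside 22.4% of genes with doxycycline and 20.5% without. Widening the window to 5 kb gave 2 members with doxycycline. The mark was not absent around all members. Across the Tcf3 gene and 50 kb either side, H3K27me3 covered 17.9% with doxycycline and 16.9% without, where it covered 3.45% and 2.48% of the genome. At every other member it covered at most 1.98% and 0.755% of such a stretch. The width of H3K27Ac, the acetylation of active promoters and enhancers, and of H3K4me1, the methylation of enhancers and promoter flanks, was smaller without doxycycline. The H3K27Ac cover of the 1 kb windows went from 81.2% to 28.9% at Id4, from 83.5% to 58.7% at Id2 and from 73.8% to 29.1% at Tcf12, and from 91.7% to 86.8% at Id1 and 94.6% to 92.6% at Id3. Tcf4, whose RNA was higher, went from 37.7% to 26.4% and Tcf3 from 35% to 19.9%. All 7 moved down, and over the whole genome the mark covered 2.75% with doxycycline and 1.85% without. The H3K4me1 cover of the same windows went from 85.1% to 41.9% at Id4, from 93.3% to 72.5% at Id1, from 95.8% to 78.8% at Id2 and from 80.2% to 76.3% at Id3. It went from 86.3% to 34.9% at Tcf12, from 55.0% to 34.9% at Tcf4 and from 35.2% to 33.1% at Tcf3, also lower at all 7. Over the whole genome H3K4me1 covered 4.82% with doxycycline and 5.86% without. Whole-genome cover is mostly not cover of starts, and the cover of start windows over all genes was not measured for either mark.

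The cover of H3K4me3, the mark of promoters, was lower at some members and higher at others, going from 69.2% to 59.9% at Tcf12 and from 36.4% to 57.9% at Tcf4. H3K4me3 covered 2.4% of the whole genome with doxycycline and 5.84% without, where H3K4me1 covered 4.82% and 5.86%. Over the Tcf4 gene and 50 kb either side, H3K4me3 and H3K4me1 covered 4.87% and 19.2% with doxycycline. Without it they covered 17.6% and 17.5%. The larger H3K4me3 cover in -Dox 3d cells was thus genome-wide, and nearly equal to that of H3K4me1. Over the gene and 50 kb either side, H3K4me1 cover was smaller without doxycycline at Id4 (11.9% to 5.9%), Tcf12 (28.8% to 19.6%) and Tcf4 (19.2% to 17.5%). It was larger at Id1 (31.9% to 52.5%), Id2 (11.6% to 17.2%), Id3 (34.1% to 41.3%) and Tcf3 (18.8% to 25.4%). At the Id4 start window H3K4me3 covered 89.8% with doxycycline and 93.7% without, and accessible regions 93.1% and 90.8%. In C2C12 myoblasts Id4 was the only member with H3K27me3 at its start, covering 36.4% of the window in the Flag control and 39.7% with Pax7-Flag, where 19.8% and 22.3% of protein-coding genes had the mark. Over the gene and 50 kb either side, H3K27me3 covered 31.7% and 47.6% in these C2C12 lines, where it covered 4.9% and 6.06% of the genome, and 1.98% and 0% in iPax7 cells with and without doxycycline. H3K4me3 was called at 5 of 7 members in the Flag control line, with none at Id1 and Id3, and at 4 of 7 with Pax7-Flag, where Tcf3 also had none, beside 45.7% and 38.6% of protein-coding genes. These C2C12 H3K4me3 files held 19828 and 19401 regions, against 94067 and 214172 in iPax7 cells with and without doxycycline.

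Tcf4, the member with the highest satellite cell RNA relative to +Dox, had more accessible regions in satellite cells than in iPax7 cells. The gene, which spans 343822 bases, and 50 kb either side held 38 regions in +Dox, 33 in -Dox 3d and 59 in satellite cells, although the satellite cell file was the smallest of the 3 (73512 regions against 116140 and 145880). The regions covered 6.59% of the locus in satellite cells, where 1.57% of the genome was covered, and 4.24% in +Dox, where 2.43% was. Of the 59 satellite cell regions, 23 (39.0%) were shared with +Dox by at least 1 base and 36 were not, while 65.9% of all satellite cell regions were shared. Such a low shared share was not rare: of 862 gene loci with at least 20 satellite cell regions, 10.9% had one as low, and 13.3% had as high a ratio of region counts. At Tcf12 the order was the other way, 30 regions in +Dox and 13 in satellite cells, and 10 of the 30 (33.3%) were shared with satellite cells, against 40.4% of all +Dox regions. The part of other cell types in the satellite cell regions was not tested.

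Pax7 itself was mapped in +Dox cells, and the deposited list holds 2455 sites. It was built to leave out sites seen in any -Dox replicate. Sites lay within 100 kb of a start of 4 of the 7 members, Id3, Tcf3, Tcf4 and Tcf12, where 18.9% of protein-coding genes had one. Tcf12 had 3: chr9:71663454-71664159, intergenic and 80.1 kb from its nearest start, chr9:71692769-71693683, over an exon at the gene's 3′ end, and a site in an intron 86.8 kb upstream of the nearest Tcf12 start. For all 3, the nearest of the 2 annotated Tcf12 starts was the internal one. The 5′ end of the gene was more than 100 kb from each of them. The intergenic site lay nearer to a start of another gene, Cgnl1, 44397 bases away. Tcf4 had 1, chr18:69825639-69826567, in an intron 13.2 kb from a start. The site nearest Id3, chr4:135609118-135609623, was 90.0 kb away and 27 bases from the start of the ribosomal protein gene Rpl11, and that nearest Tcf3, chr10:79783086-79783649, was 94.9 kb away and 85 bases from the start of 2310011J03Rik. The last 2 are thus promoter sites of other genes. Within 50 kb 1 member had a site, beside 11.5% of protein-coding genes, and within 250 kb 5 did, beside 37.2%.

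The Tcf12 intron site was accessible in +Dox cells alone. Its ATAC-seq fold was 11.4 in +Dox, with no region in any of the other 9 files, a pattern of 220 of the 2455 sites (8.96%). The site over the exon had a fold of 11.7 in +Dox and 2.74 in C2C12 myoblasts with Pax7-Flag, and no region elsewhere, so both were without a region in the 3 -Dox files, as were 594 of all sites (24.2%). Both also carried H3K27Ac in +Dox cells and in C2C12 cells with Pax7-Flag, and not in -Dox 3d cells or the Flag control. Their other marks differed. In -Dox 3d cells the exon site had no H3K4me1 and no H3K4me3. At the intron site H3K4me1 covered 697 bases with doxycycline and 577 without, and H3K4me3 0 and 382. The cover of H3K4me3 over the whole genome, given above, was also larger without doxycycline. The intergenic site behaved otherwise in accessibility. Its fold was 18.8 in +Dox, 5.26 at 12 h, 8.88 at 24 h, 9.99 at 3 days and 4.90 in iPax7 myotubes, and it had no region in satellite cells. The Tcf4 site had a fold of 5.17 in +Dox, 3.62 at 12 h, none at 24 h, 2.68 at 3 days, 5.64 in myotubes and 5.47 in satellite cells. Tcf12 RNA, with these 3 sites within 100 kb of a start, was lower in -Dox 3d by 0.31 on the log2 scale, as given above.

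**Figure D5:**
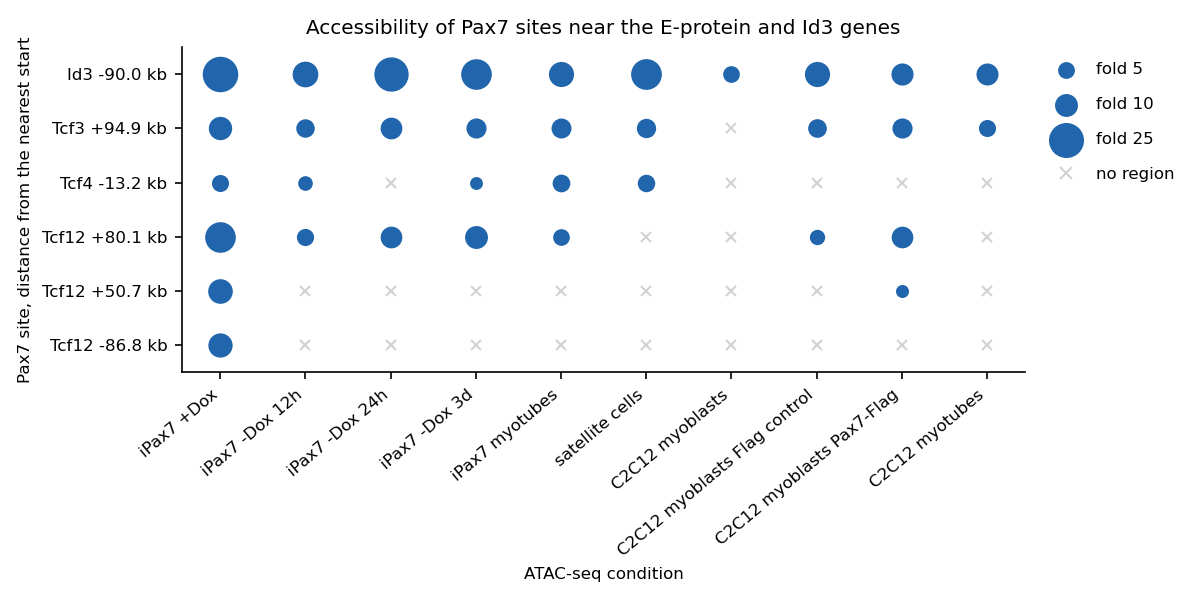
ATAC-seq fold at the 6 Pax7 sites within 100 kb of a member's start (rows, with the distance from the nearest start in kb) in the 10 conditions (columns); the area of a point is proportional to the fold, and a cross marks no region. The lowest row, the Tcf12 intron site, has a point in iPax7 +Dox only, while the Id3 row has a point in every column.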

How the data were processed

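RNA-seq, ATAC-seq and ChIP-seq files of mouse cells were analysed as deposited. The authors deposited RNA-seq counts of reads per gene in HTSeq form (HTSeq 0.6, TopHat2 2.0 and edgeR are named in the submitters' processing notes), 1 file per replicate, with the strand setting and annotation not given in the sources used here. Rows that name no gene were left out of library sizes: reads with no feature were 0.002% to 0.00309%, ambiguous reads 1.51% to 2.32% and reads aligned to several places 7.11% to 30.7% of the total. For ATAC-seq, the authors aligned paired reads to mm9 with Bowtie2 2.2.6, removed duplicates with Picard, shifted read ends for the transposase, merged replicates and called regions with MACS2 2.0.10, depositing for each region a fold ratio and the −log10 of its p-value and q-value. Histone regions (merged replicates) and Pax7 sites were deposited as positions called with Qeseq.

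The 8 replicates were fitted together with edgeR 4.0.16 (R 4.3.3; TMM scaling, filterByExpr, 14836 genes, Benjamini-Hochberg adjustment), and the script was tested on simulated data. Groups came from the sample labels. Regions overlapping by 1 base or more were merged within a file and overlapped with GENCODE M1 genes on NCBIM37; starts were widened by 1 kb, loci by 50 kb. Genes named in the text are the members, all 4 myogenic bHLH factors, up to 3 called genes per list, comparison and direction with the smallest adjusted p, Pax7, and the 3 most similar profiles per member; 1 of these, for Tcf3, and the sequence of 1 Pax7 site are not reported here. The members and lists were chosen with earlier results of these data known. Alternatives were DESeq2 1.42.0, size-factor scaling, other filters, a 2-group fit, a replicate block, leaving out each replicate, other lengths, windows and overlaps.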

Additional observations from a re-analysis of the deposited data

How the results depend on the processing

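No called result changed direction under any alternative run. Of 294 member log2 fold changes recomputed under the alternatives, 289 moved by less than the spread between replicates (the others were Id4 without either -Dox replicate and Id1 between satellite cells and -Dox 3d with the block), and of 658 for the named pathway genes 624 kept their direction and their side of the threshold. Between -Dox 3d and +Dox, 1134 genes were called in the report's fit, 2010 with DESeq2, 1950 when only the 2 groups were fitted, 741 under a replicate block, and 488 to 1374 with 1 replicate left out, the lowest without either -Dox replicate. Between satellite cells and -Dox 3d, 5579 were called, and 3204 to 5821 with 1 replicate left out. The number of pathway genes called was 33 (23 to 35 with 1 replicate left out) in the first comparison and 58 (51 to 57) between satellite cells and +Dox, where all genes gave 6252 (5112 to 6229). Leaving 1 -Dox replicate assumes that the lone sample varies like the other groups. The labels do not say whether replicate numbers pair the samples. Deviations of same-numbered replicates from their group mean correlated between -0.0398 and 0.0272. With 2 or 3 replicates a group, these values cannot settle whether the samples were paired. The block was run as an alternative. With it, the calls of Id3, Bhlhe40, Heyl and Myf6 between -Dox 3d and +Dox were lost. The cause of these shifts was not tested beyond the smaller number of samples. Id4 in -Dox 3d rests on 1 read, so its fold has a wide interval, and the chromatin files hold no replicates.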
